A study of Mus musculus with 8 samples.

Results

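The genes described here are the 5 that encode the subunits of LRRC8 volume-regulated anion channels, Lrrc8a, Lrrc8b, Lrrc8c, Lrrc8d and Lrrc8e, measured by RNA-seq in lung myofibroblasts of C57BL/6 mice on postnatal day 7. They were found in the deposited count table by their mouse Ensembl identifiers, which gave 5 rows of 43432, and all 5 were among the 15422 genes that kept enough reads to be tested. Of the 8 libraries, 4 were labelled Fra-2 transgenic with constitutive Fra-2, and the other 4 were labelled wildtype controls. Fra-2 is the protein product of Fosl2 and pairs with Jun proteins as an AP-1 transcription factor. The promoter that drives the transgene and how the cells were isolated remain unstated in the sources read. So does whether each library came from its own animal or from pooled animals. Every p-value therefore covers only the library-to-library spread, part of which may be technical. The family was chosen knowing that Lrrc8e differs between the groups, so the members' values are a description and carry no test.

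LRRC8 proteins assemble into hexameric pores in the plasma membrane that open when a cell swells and let chloride and small organic osmolytes such as taurine leave, which lets the cell return towards its former volume. LRRC8A is the subunit that every functional channel needs, and LRRC8B, LRRC8C, LRRC8D and LRRC8E join it and set which solutes pass. Channels with LRRC8D carry neutral osmolytes and some drugs, and channels with LRRC8E or LRRC8C are known to carry the immune messenger cGAMP in mouse cells.

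The promoter of Lrrc8e is shown because its RNA was the one that separated the groups, and that of Lrrc8b because it holds a match to the letters bound by AP-1 factors such as Fra-2. Both run 5′ to 3′ on the plus strand of RefSeq's GRCm38.p6 assembly, from 250 bases before to 50 bases after the annotated start, and capitals mark a motif match. The Lrrc8e window is chr8:4226577-4226876 and the Lrrc8b window is chr5:105415525-105415824.
Lrrc8e: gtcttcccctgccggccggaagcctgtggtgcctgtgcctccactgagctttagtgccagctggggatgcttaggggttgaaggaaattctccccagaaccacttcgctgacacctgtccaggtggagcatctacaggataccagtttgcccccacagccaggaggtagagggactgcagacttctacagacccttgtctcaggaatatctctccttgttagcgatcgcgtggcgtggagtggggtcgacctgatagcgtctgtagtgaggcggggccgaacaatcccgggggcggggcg
Lrrc8b: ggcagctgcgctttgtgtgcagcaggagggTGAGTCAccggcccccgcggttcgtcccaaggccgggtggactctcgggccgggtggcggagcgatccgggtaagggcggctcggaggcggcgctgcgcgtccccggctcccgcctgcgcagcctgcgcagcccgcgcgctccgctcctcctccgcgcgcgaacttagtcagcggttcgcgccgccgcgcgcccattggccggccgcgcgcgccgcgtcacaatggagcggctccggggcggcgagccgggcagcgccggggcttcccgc
All 5 members matched the RefSeq promoter table, with 6 windows in all because Lrrc8d has 2. Both strands were searched for TGANTCA, the AP-1 motif, for TGACGTCA, the cyclic AMP response element (CRE), and for TGGAAA, the core of the site bound by NFAT5, the factor that answers hypertonic stress. None of the 3 motifs lies within another. The Lrrc8e window held none of these letters. The Lrrc8b window held 1 AP-1 match, TGAGTCA, which starts 220 bases before the start (position -220), and 7.81% of the 32841 promoter windows in the table hold TGANTCA. The Lrrc8a window held 1 CRE match at position -108, against 1.79% of all windows, and no member's window held TGGAAA, which 21.4% of all windows hold. The windows also differed in base composition. That of Lrrc8e was 60.0% G or C with 14 CG dinucleotides, while those of Lrrc8a to Lrrc8d were 70.0% to 78.0% G or C, and the Lrrc8b window had 51 CG dinucleotides. The median over all windows was 52.7%.

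The coding sequences show how far reads of the members can be told apart. Over 10 pairs, their aligned coding bases were identical at 60.9% (Lrrc8b with Lrrc8e) to 68.4% (Lrrc8a with Lrrc8b) of positions, and no stretch of 31 bases was shared between any members. Of the 3848 different 31-base stretches of the Lrrc8e transcript, 2.26% also occur in transcripts of other genes. The longest identical runs that Lrrc8b with Lrrc8c, and Lrrc8c with Lrrc8e, hold in their coding sequence are given in capitals, read from the reference transcripts of the GENCODE M21 annotation of GRCm38, because reads lying inside such runs would fit both genes.
Lrrc8b and Lrrc8c: GAGCTGGACCTGAAGGAGAACAACCTCAAG
Lrrc8c and Lrrc8e: GCCCTCCACTGGTATGCCAA
The first run is 30 bases long and the second 20 bases, and the longest run that Lrrc8e shares with any other member is that second one. Lrrc8a is the exception in another way: 2944 of its 4308 exon bases (68.3%) also lie in exons of a readthrough gene, Gm28035, or of the antisense gene 1700084E18Rik. Those genes reached at most 3 and 51 counts in any library, against 855 to 1268 for Lrrc8a. These low counts do not show that the overlap is harmless, because how reads in shared exon bases were counted is unstated. If such reads were left out, the level and share of Lrrc8a per kilobase of exon would be too low. Ratios of other members to Lrrc8a would then be too high. Whether such reads were left out was not tested. The protocol names no step that marks strand, so reads of Lrrc8a and of its antisense partner cannot be told apart. Lrrc8d shared 1.73% of its exon bases with the antisense gene Lrrc8dos, and Lrrc8b, Lrrc8c and Lrrc8e shared none with an annotated exon of another gene.

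Each library held 29926239 to 41335957 gene counts. Fosl2 checks the labels, and it had 166, 134, 126 and 104 CPM (read counts scaled to a common library size) in Fra-2-labelled libraries 1 to 4, against 105, 117, 141 and 119 CPM in control libraries 1 to 4. These groups overlapped, with a log2 fold change of 0.14 (SE 0.136) and an adjusted p of 0.888 in edgeR's quasi-likelihood test, so the groups are called by their labels and every direction given here rests on those labels. All 17 myofibroblast markers were detected, with a summed level of 33138 to 35676 CPM in Fra-2-labelled libraries and 31916 to 34398 CPM in control libraries, and Col3a1, a fibrillar collagen, was their most abundant member at 7107 CPM in Fra-2-labelled libraries and 6576 CPM in controls. Of the 17 myofibroblast markers 1 rose (Stc1) and 1 fell (Enpp2) in edgeR at an adjusted p of 0.05. That is 11.8% of them, beside 1.02% of all tested genes, and 5 had an unadjusted p under 0.05. Xist and Y-linked reads put 2 libraries of either sex in each group. CPM use library sizes scaled by edgeR's TMM factors.

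Between the groups, the 1 subunit that stood apart was Lrrc8e, which was 4.21-fold higher in Fra-2-labelled libraries (95% interval 2.76 to 6.43). Lrrc8b was 1.30-fold higher with overlapping groups, and the channel's shared subunit Lrrc8a, together with Lrrc8c and Lrrc8d, lay within 0.986-fold to 1.10-fold of the controls with intervals that include no change. Of the 5 members, 1 passed an adjusted p of 0.05 in edgeR, in the higher direction, and 0 in the lower direction, beside 1.02% of all tested genes in either direction, 0.72% in the higher and 0.298% in the lower. For 1 of 5 the groups did not overlap in CPM, with Fra-2-labelled libraries higher, beside 5.76% of all tested genes in either direction, 3.35% in the higher and 2.42% in the lower. Nothing is read from these counts, since the family was chosen on this contrast.

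**Figure D1:**
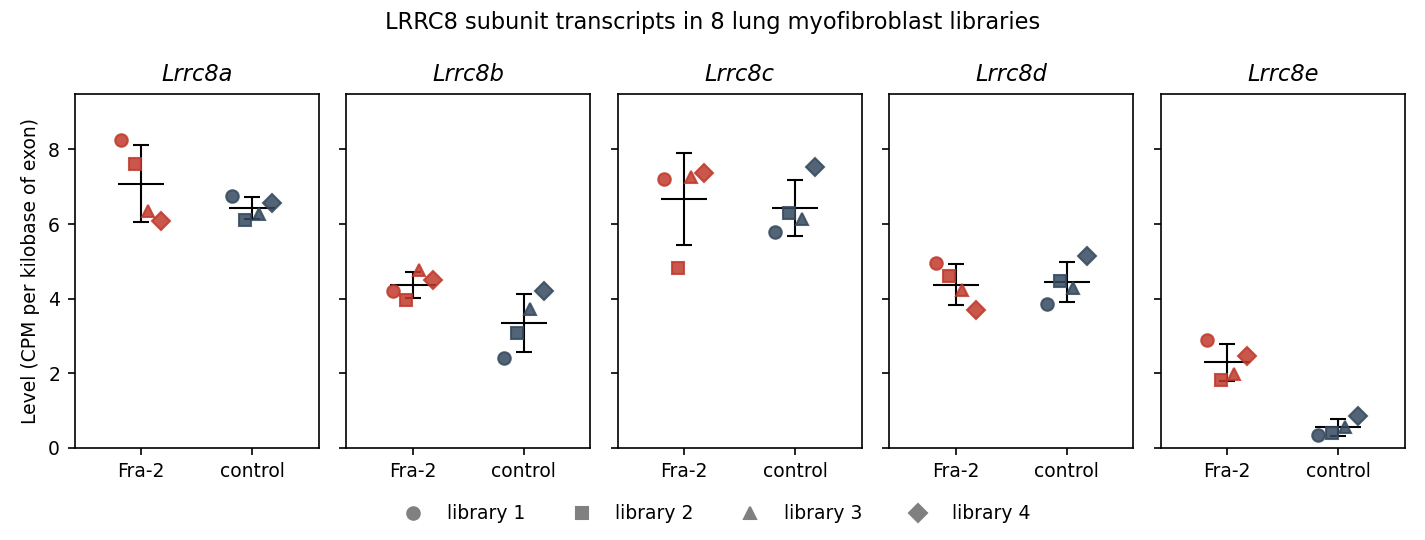
Level of each LRRC8 subunit in CPM per kilobase of exon, in the 4 Fra-2-labelled libraries (left in each panel) and the 4 control libraries (right). Points are libraries, the long bar is the mean and the whiskers are 1 SD. The Lrrc8e points of the Fra-2-labelled libraries (1.81 to 2.90) lie above all those of the controls (0.355 to 0.866), while the points of the other 4 subunits overlap between groups.

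Lrrc8a (ENSMUSG00000007476, chromosome 2, 30237715 to 30263790, plus strand, GRCm38), the subunit every channel needs, had 35.5, 32.8, 27.4 and 26.2 CPM in Fra-2-labelled libraries 1 to 4, against 29.1, 26.3, 27.0 and 28.3 CPM in control libraries 1 to 4. The 2 highest values were Fra-2-labelled libraries 1 and 2, and libraries 3 and 4 of that group lay among the controls or below them. The means were 30.5 ± 4.43 CPM in Fra-2-labelled libraries and 27.7 ± 1.27 CPM in controls (SD, n = 4 each), a log2 fold change of 0.14 (SE 0.129) whose 95% interval as a fold was 0.910 to 1.34. A 2-fold difference of Lrrc8a lay outside that interval. The coefficient of variation of Lrrc8a was 14.5% among Fra-2-labelled libraries and 4.59% among controls, the smallest control value of the 5 members.

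Lrrc8e (ENSMUSG00000046589, chromosome 8, 4226827 to 4237470, plus strand), a partner subunit linked to cGAMP passage, had 12.0, 7.48, 8.22 and 10.2 CPM in Fra-2-labelled libraries 1 to 4, against 1.47, 1.65, 2.34 and 3.58 CPM in control libraries 1 to 4. Every Fra-2-labelled library lay above every control library, and the lowest of them, library 2, was still above the highest control, library 4. The counts behind these levels were 416, 235, 261 and 386 in Fra-2-labelled libraries and 64, 58, 74 and 119 in controls, so all 8 libraries held reads of Lrrc8e. The means were 9.48 ± 2.04 CPM in Fra-2-labelled libraries and 2.26 ± 0.956 CPM in controls (SD, n = 4 each), with a log2 fold change of 2.07 (SE 0.285). It was 2.35 among the female libraries alone and 1.82 among the male libraries alone, with 2 libraries a group in each. Relative to its mean, Lrrc8e varied less among Fra-2-labelled libraries, with a coefficient of variation of 21.5%, than among controls, with 42.3%.

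Lrrc8b (ENSMUSG00000070639, chromosome 5, 105415775 to 105490074, plus strand), a partner subunit whose part in channel function is less well defined, had 28.4, 26.7, 32.0 and 30.3 CPM in Fra-2-labelled libraries 1 to 4, against 16.2, 20.8, 25.0 and 28.2 CPM in control libraries 1 to 4. The groups met only at their edges, where control library 4 lay above Fra-2-labelled library 2. The means were 29.4 ± 2.34 CPM in Fra-2-labelled libraries and 22.6 ± 5.21 CPM in controls (SD, n = 4 each), a log2 fold change of 0.38 (SE 0.161) with an interval of 1.02-fold to 1.66-fold. As with Lrrc8e, control library 1 was the lowest and control library 4 the highest of the controls, and Fra-2-labelled library 2 was the lowest of its group.

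Lrrc8c (ENSMUSG00000054720, chromosome 5, 105519388 to 105613018, plus strand), a partner subunit first described in adipocyte differentiation, had 55.2, 36.8, 55.5 and 56.4 CPM in Fra-2-labelled libraries 1 to 4, against 44.2, 48.2, 46.9 and 57.6 CPM in control libraries 1 to 4. Fra-2-labelled library 2 was the lowest of all 8 and control library 4 the highest, and the other 3 Fra-2-labelled libraries lay above control libraries 1, 2 and 3. The means were 51.0 ± 9.47 CPM in Fra-2-labelled libraries and 49.2 ± 5.79 CPM in controls (SD, n = 4 each), a log2 fold change of 0.05 (SE 0.143; 0.838-fold to 1.28-fold), which became 0.18 without Fra-2-labelled library 2.

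Lrrc8d (ENSMUSG00000046079, chromosome 5, 105699969 to 105832436, plus strand), the partner that lets neutral osmolytes and drugs through, had 62.4, 58.0, 53.2 and 46.5 CPM in Fra-2-labelled libraries 1 to 4, against 48.4, 56.4, 53.9 and 64.5 CPM in control libraries 1 to 4. The groups spanned nearly the same range, with control library 4 the highest and Fra-2-labelled library 4 the lowest. The means were 55.0 ± 6.83 CPM in Fra-2-labelled libraries and 55.8 ± 6.71 CPM in controls (SD, n = 4 each), a log2 fold change of -0.02 (SE 0.123; 0.822-fold to 1.18-fold).

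**Figure D2:**
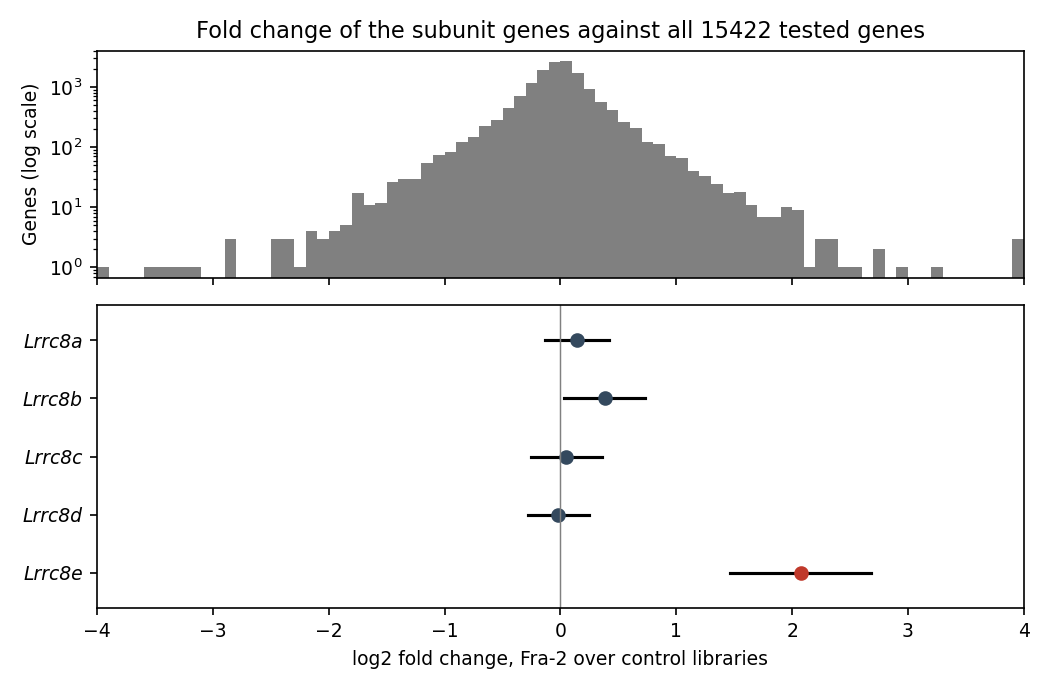
Log2 fold change, Fra-2-labelled over control libraries, from the edgeR fit: above, the number of genes per bin on a log scale for all 15422 tested genes, with those beyond the axis drawn in its end bins; below, each subunit with its 95% interval. Lrrc8e stands at 2.07 and the other 4 subunits between -0.02 and 0.38.

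Set on a scale of CPM per kilobase of exon, which allows levels of different genes to be compared, Lrrc8a and Lrrc8c had the highest mean levels, at 7.08 ± 1.03 and 6.66 ± 1.24 in Fra-2-labelled libraries and 6.42 ± 0.295 and 6.43 ± 0.757 in control libraries (SD, n = 4 each). These neighbours did not differ beyond their spread. Lrrc8a was first in 4 libraries and Lrrc8c in the other 4. The lowest Lrrc8c level, 4.81 in Fra-2-labelled library 2, lay within the range of Lrrc8d in that group (3.69 to 4.96). Lrrc8d and Lrrc8b followed, at 4.38 ± 0.543 and 4.36 ± 0.348 in Fra-2-labelled libraries, and at 4.44 ± 0.534 and 3.35 ± 0.774 in control libraries, where their ranges also overlapped. Lrrc8e was last in all 8 libraries, at 2.29 ± 0.493 in Fra-2-labelled libraries and 0.547 ± 0.231 in control libraries, with no overlap with Lrrc8b in either group. Among the 15334 tested genes with an annotated length, 45.5% had a lower mean level than Lrrc8e in Fra-2-labelled libraries and 20.9% in controls, while for Lrrc8a the figure was 70.0% in Fra-2-labelled libraries and 67.7% in controls.

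The subunit shares give each gene's part of the summed CPM per kilobase of the family. Lrrc8e made up 10.5%, 7.93%, 8.08% and 10.3% of the family in Fra-2-labelled libraries 1 to 4, against 1.86%, 1.96%, 2.70% and 3.57% in control libraries 1 to 4. Its groups did not overlap, with means of 9.20% ± 1.38 in Fra-2-labelled libraries and 2.52% ± 0.791 in controls (SD, n = 4 each). Lrrc8a made up 28.6% ± 3.83 in Fra-2-labelled libraries and 30.5% ± 3.44 in controls, and Lrrc8c 26.8% ± 4.26 in Fra-2-labelled libraries and 30.3% ± 0.805 in controls. Lrrc8d made up 17.7% ± 2.04 in Fra-2-labelled libraries and 20.9% ± 0.852 in controls, and Lrrc8b 17.7% ± 1.78 in Fra-2-labelled libraries and 15.7% ± 2.35 in controls. The shares of all 4 of these genes overlapped between the groups. A share counts RNA and says nothing of how many subunits stand in a channel.

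**Figure D3:**
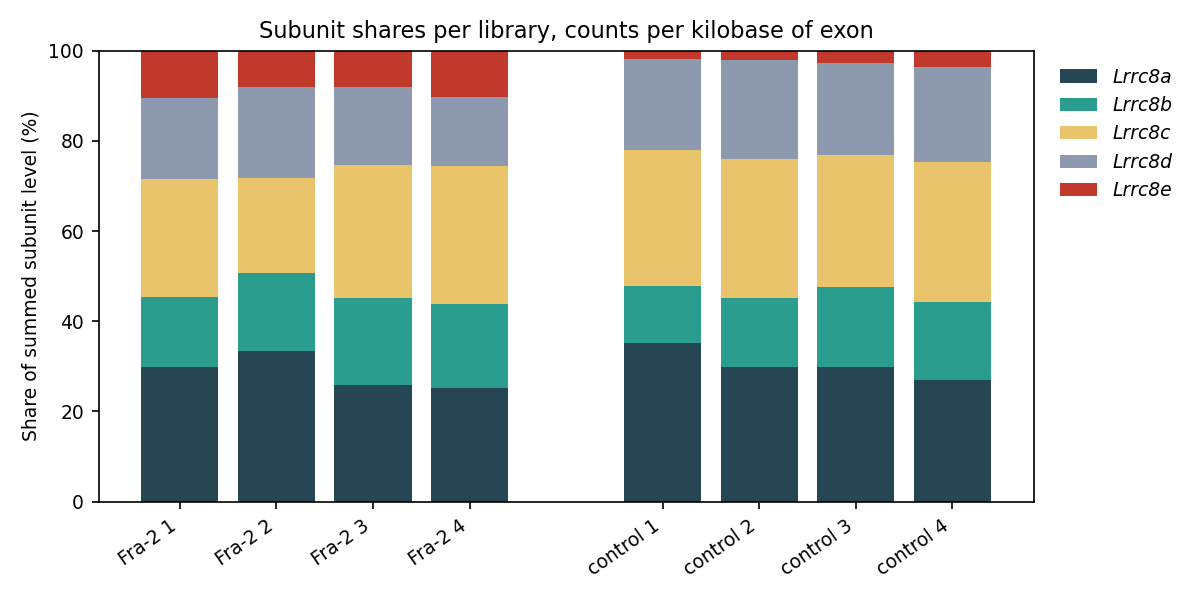
Share of each subunit in the summed CPM per kilobase of the family, in percent, for each of the 4 Fra-2-labelled and 4 control libraries. The Lrrc8e segment spans 7.93% to 10.5% in Fra-2-labelled libraries and 1.86% to 3.57% in control libraries.

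Set against the shared subunit in the same library, Lrrc8e had 0.352, 0.238, 0.313 and 0.407 of the Lrrc8a level per kilobase in Fra-2-labelled libraries 1 to 4, against 0.0526, 0.0656, 0.0902 and 0.132 in control libraries 1 to 4. These ratios did not overlap. The mean ratio to Lrrc8a was 0.630 in Fra-2-labelled libraries and 0.524 in controls for Lrrc8b, 0.964 in Fra-2-labelled libraries and 1.003 in controls for Lrrc8c, and 0.620 in Fra-2-labelled libraries and 0.693 in controls for Lrrc8d. All 3 of these ratios overlapped between the groups. The family summed to 24.8 ± 1.99 CPM per kilobase in Fra-2-labelled libraries and 21.2 ± 2.19 in controls, and without Lrrc8e to 22.5 ± 1.58 in Fra-2-labelled libraries and 20.6 ± 1.97 in controls. Both sums overlapped between the groups, with control library 4 at the level of the Fra-2-labelled libraries.

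Which gene leads depends on the length used. The annotated exons of Lrrc8d cover 12573 bases, while its longest coding transcript has 3929. With that transcript length Lrrc8d was first in 8 of 8 libraries, at 39.7% of the family in Fra-2-labelled libraries and 44.9% in controls. With only the exon bases that no other gene shares, Lrrc8a was first in 8 of 8, at 55.6% in Fra-2-labelled libraries and 57.9% in controls. That length would apply if reads in shared bases were left out of the counts, which is unknown. Lrrc8e was last in every library under all 5 lengths tried, with a share of 5.38% to 9.20% in Fra-2-labelled libraries and 1.40% to 2.52% in controls, and it was the 1 subunit whose share did not overlap between groups under each of them.

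The genes lie at 3 places in the genome. Lrrc8b, Lrrc8c and Lrrc8d form a row on chromosome 5, all on the plus strand, with 29.3 kb between Lrrc8b and Lrrc8c and 87.0 kb between Lrrc8c and Lrrc8d, and their log2 fold changes were 0.38, 0.05 and -0.02. The next protein-coding gene beyond Lrrc8d, Zfp326, a zinc finger protein gene, averaged 67.4 ± 1.83 CPM in Fra-2-labelled libraries and 84.3 ± 8.67 CPM in controls (SD, n = 4 each). That difference did not pass (log2 fold change -0.32, edgeR adjusted p = 0.223), although the groups did not overlap. On the other side of the row, Gm43302 averaged 1.82 CPM in Fra-2-labelled libraries and 2.16 CPM in controls (edgeR adjusted p = 0.934). Beside Lrrc8a on chromosome 2, Kyat1 averaged 3.55 CPM in Fra-2-labelled libraries and 4.14 CPM in controls (edgeR adjusted p = 0.912), and Phyhd1 0.982 CPM in Fra-2-labelled libraries and 0.749 CPM in controls (edgeR adjusted p = 0.929).

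Lrrc8e stands alone on chromosome 8, between Prr36 and Map2k7. Prr36 lies on the minus strand, with its nearer edge 9.37 kb upstream. Map2k7 begins 1.27 kb downstream on the same strand as Lrrc8e and encodes a kinase that activates JNK. Map2k7 averaged 87.7 ± 6.58 CPM in Fra-2-labelled libraries and 84.3 ± 9.96 CPM in controls (SD, n = 4 each), with a log2 fold change of 0.06 and an edgeR adjusted p of 0.952. Prr36 averaged 1.82 ± 1.03 CPM in Fra-2-labelled libraries and 1.95 ± 0.714 CPM in controls, with a log2 fold change of -0.11 and an edgeR adjusted p of 0.983. Within 500 kb on either side of the Lrrc8e start, 11 other genes were tested, placed by their lower coordinate whichever strand they are on. Of these, 0 passed in edgeR, 0 had an unadjusted p under 0.05 and 0 passed in DESeq2. Over all 15422 tested genes, 1.02% passed in edgeR and 369 genes passed in DESeq2, so 0 of 11 does not set this region apart. The log2 fold changes of the 11 genes ran between -0.30 and 0.83 with a median of 0.01, all below the 2.07 of Lrrc8e.

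**Figure D4:**
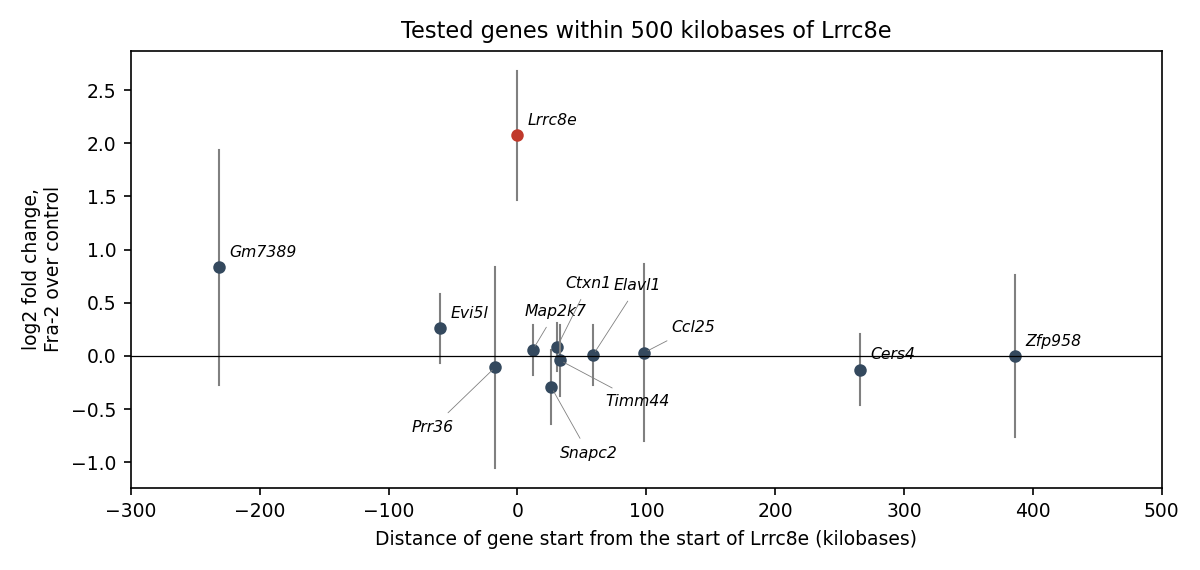
Log2 fold change, Fra-2-labelled over control libraries, with 95% intervals for Lrrc8e and the 11 other tested genes whose starts lie within 500 kb of its own. The x axis is the distance in kb between starts, where a start is the gene's lower coordinate on either strand. Lrrc8e is at 2.07 and the others between -0.30 and 0.83.

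Members also differed in how they varied from library to library. On log2 CPM over the 8 libraries, Pearson's r with Lrrc8e was 0.83 for Lrrc8b, 0.45 for Lrrc8a, 0.31 for Lrrc8c and 0.13 for Lrrc8d. After the group means were removed it was 0.79 for Lrrc8b, 0.66 for Lrrc8c, 0.55 for Lrrc8d and 0.12 for Lrrc8a. These r values describe 8 libraries that share their scaling, and no p is attached to them. Lrrc8e and Lrrc8b were both lowest in control library 1, highest among controls in control library 4, and lowest among Fra-2-labelled libraries in library 2. This order is not particular to the pair. Lrrc8c was also lowest among controls in library 1, highest among controls in library 4, and lowest among Fra-2-labelled libraries in library 2.

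The 5 protein-coding genes whose pattern over the 8 libraries was most like that of Lrrc8e, among 9552 genes averaging at least 5 CPM, were Mmp19, Klhl5, Farp1, Sfrp1 and Hspb7, with r of 0.98 to 0.99 on log2 CPM. With group means removed their r was 0.82 to 0.90. They were picked over these same 8 libraries for likeness to a gene that differs between the groups. Their own differences, their r within groups and their order of libraries follow from that choice and are a description. Mmp19, a matrix metalloproteinase gene, had 33.9, 27.0, 36.4 and 33.8 CPM in Fra-2-labelled libraries 1 to 4, against 8.22, 8.81, 11.4 and 15.1 CPM in control libraries 1 to 4. As for Lrrc8e, control library 1 was lowest and control library 4 highest of the controls, and Fra-2-labelled library 2 was lowest of its group. Sfrp1, a secreted Wnt antagonist gene, averaged 171 ± 29.8 CPM in Fra-2-labelled libraries and 53.2 ± 12.4 CPM in controls, and Hspb7, a small heat shock protein gene, 89.6 ± 10.3 CPM in Fra-2-labelled libraries and 52.0 ± 7.93 CPM in controls (SD, n = 4 each). Farp1 averaged 254 ± 9.71 CPM in Fra-2-labelled libraries and 206.0 ± 13.9 CPM in controls. Klhl5 averaged 81.4 ± 2.29 CPM in Fra-2-labelled libraries and 72.2 ± 1.65 CPM in controls.

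Of the genes that handle cell volume and osmolytes alongside the channel, a taurine transporter gene rose. Of 34 listed, 30 were tested, of which 1 rose, 0 fell and 29 did not pass (edgeR adjusted p of 0.05). The share that passed, 3.33%, rests on that 1 gene and stands beside 1.02% of all tested genes in either direction and 0.72% in the higher. An unadjusted p under 0.05 was found for 3 genes of the list and 2 passed in DESeq2, both higher, with a median log2 fold change of 0.07 against -0.01 over all tested genes. The 1 that rose was Slc6a6, which encodes the transporter that takes up taurine, an osmolyte that LRRC8 channels release. It had 475, 439, 515 and 469.9 CPM in Fra-2-labelled libraries 1 to 4, against 273, 285, 320 and 347 CPM in control libraries 1 to 4. The groups did not overlap, and control libraries 1 and 4 were again the lowest and highest controls. Its log2 fold change of 0.63 (SE 0.103) passed with an edgeR adjusted p of 0.00789, and the adjusted p stayed between 2.1e-06 and 0.0393 over the alternatives run.

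Sgk1, a kinase gene induced by osmotic and hormonal cues, is named after its values were seen, because its call depends on the fit. It had 50.2, 48.3, 53.9 and 69.4 CPM in Fra-2-labelled libraries 1 to 4, against 25.8, 28.8, 36.4 and 46.4 CPM in control libraries 1 to 4, with no overlap. Its log2 fold change was 0.69 with an edgeR adjusted p of 0.101, and it passed in DESeq2 (adjusted p = 0.0103), with no low-count filter (edgeR adjusted p = 0.0359), with the replicate block (edgeR adjusted p = 0.0102) and without control library 4 (edgeR adjusted p = 0.0182). The range over the alternatives run was 0.0102 to 0.302. Of the 3 most abundant members of the list, Slc6a6 passed and the other two did not. Slc38a2, an amino acid transporter gene, averaged 610.4 CPM in Fra-2-labelled libraries and 548 CPM in controls (edgeR adjusted p = 0.722), and Wnk1, a chloride-sensing kinase gene, 557 CPM in Fra-2-labelled libraries and 548 CPM in controls (edgeR adjusted p = 0.983).

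Genes for other channels that pass chloride or small solutes did not pass the test, beside 1.02% of all tested genes that passed in edgeR. At that share, lists of this length say little about these channels. Of 35 listed genes for other chloride channels, 29 were tested, and 0 passed in edgeR, 0 had an unadjusted p under 0.05 and 0 passed in DESeq2, with a median log2 fold change of -0.0026. Clic4 averaged 529.5 CPM in Fra-2-labelled libraries and 515 CPM in controls, and Ano6, a calcium-activated channel and scramblase gene, 471 CPM in Fra-2-labelled libraries and 465 CPM in controls. Ttyh3 averaged 339 CPM in Fra-2-labelled libraries and 295 CPM in controls. Of 25 genes for pannexin, connexin and CALHM pores, 8 were tested, and 0 passed in edgeR, 1 had an unadjusted p under 0.05 and 0 passed in DESeq2, with a median of -0.22. That 1 gene was Gja1, which encodes connexin 43, at 88.2, 138, 102 and 204 CPM in Fra-2-labelled libraries 1 to 4, against 256, 155, 181 and 197 CPM in control libraries 1 to 4. Its groups overlapped, and its log2 fold change was -0.57 (edgeR adjusted p = 0.542). Gjc1, another connexin gene, averaged 147 CPM in Fra-2-labelled libraries and 167 CPM in controls, without overlap but also without passing (edgeR adjusted p = 0.592). Calhm5 averaged 50.2 CPM in Fra-2-labelled libraries and 53.5 CPM in controls.

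For cGAMP, the messenger that LRRC8E channels can carry, 14 of 17 listed transport and STING pathway genes were tested. Of these, 0 passed in edgeR, beside 1.02% of all tested genes, a share at which 14 genes say little. An unadjusted p under 0.05 was found for 1 gene and 0 passed in DESeq2, with a median log2 fold change of -0.03. That 1 gene was Enpp1, whose product breaks down cGAMP outside the cell, at 845, 805, 721 and 879 CPM in Fra-2-labelled libraries 1 to 4, against 992, 954, 1015 and 1185 CPM in control libraries 1 to 4. Every Fra-2-labelled library lay below every control, but the log2 fold change of -0.35 did not pass (edgeR adjusted p = 0.177). Samhd1 averaged 136 CPM in Fra-2-labelled libraries and 128 CPM in controls, and Abcc1, an exporter gene, 109.9 CPM in Fra-2-labelled libraries and 100.2 CPM in controls.

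Reads of other cell types' markers were present in all 8 libraries, and in bulk libraries fewer cells of a type and less RNA per cell cannot be told apart. Summed mesothelial markers, 5 of 6 tested, were 14.0, 7.20, 8.03 and 13.3 CPM in Fra-2-labelled libraries 1 to 4, against 3.95, 5.42, 6.48 and 9.54 CPM in control libraries 1 to 4. Within each group this ranks the libraries as Lrrc8e does. Control library 4 exceeded Fra-2-labelled libraries 2 and 3 in this sum and had less Lrrc8e than both. That excess in the sum lay mostly or wholly in Krt19. Krt19 was 3.16 CPM of the sum in control library 4, against 0.860 and 0.725 CPM in Fra-2-labelled libraries 2 and 3. Krt19 averaged lower in Fra-2-labelled libraries (1.13 CPM) than in controls (1.40 CPM), while all the other listed mesothelial markers averaged higher. Among those, Lrrn4 averaged 1.59 CPM in Fra-2-labelled libraries and 0.772 CPM in controls, without overlap. Upk3b, the most abundant mesothelial marker, averaged 3.04 CPM in Fra-2-labelled libraries and 1.70 CPM in controls. Summed epithelial markers, 13 of 14 tested, were 120.1 to 229 CPM in Fra-2-labelled libraries and 61.4 to 145 CPM in controls, led by Sftpc at 63.5 CPM in Fra-2-labelled libraries and 44.6 CPM in controls. Pericyte markers, 6 of 6 tested, summed to 1213 to 1553 CPM in Fra-2-labelled libraries and 1576 to 1938 CPM in controls without overlap. Rgs5 made up most of that sum, at 1025 CPM in Fra-2-labelled libraries and 1391 CPM in controls. Kcnj8, Abcc9 and Higd1b also averaged lower in Fra-2-labelled libraries. Cspg4 (51.8 CPM against 45.9 CPM in controls) and Notch3 (70.1 CPM against 56.1 CPM) averaged higher. Endothelial markers, 10 of 10 tested, summed to 148 to 163 CPM in Fra-2-labelled libraries and 115 to 151 CPM in controls, led by Erg at 75.2 CPM in Fra-2-labelled libraries and 68.6 CPM in controls. Immune markers, 9 of 10 tested, summed to 89.9 to 119.6 CPM in Fra-2-labelled libraries and 77.9 to 114 CPM in controls, led by Lyz2 at 51.7 CPM in Fra-2-labelled libraries and 42.7 CPM in controls. No marker of these lists was at 0 in every library, and Krt19 is in both the epithelial and the mesothelial list. In edgeR 0 members of these 5 lists passed, beside 1.02% of all tested genes. An unadjusted p under 0.05 was found for 2 mesothelial, 1 epithelial, 2 pericyte, 1 endothelial and 0 immune genes. DESeq2 passed 1 epithelial gene (higher) and 1 pericyte gene (lower). Their part in the Lrrc8e difference was not tested.

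**Figure D5:**
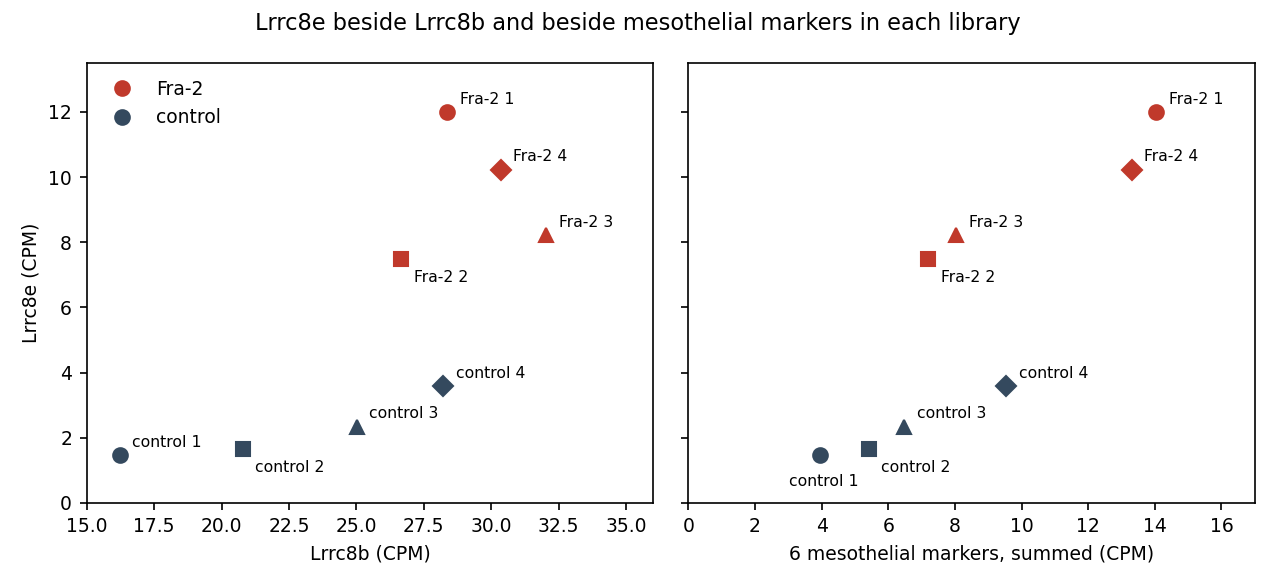
CPM of Lrrc8e on the y axis against CPM of Lrrc8b (left) and the summed CPM of the 6 listed mesothelial markers (right) on the x axes, 1 point per library. Fra-2-labelled libraries lie at 7.48 to 12.0 CPM of Lrrc8e and controls at 1.47 to 3.58 CPM. Control library 4 reaches the Lrrc8b level and the marker level of some Fra-2-labelled libraries at a lower Lrrc8e level. Its marker level rests in part on Krt19, also an epithelial marker, at 3.16 CPM. Krt19 was at 0.860 and 0.725 CPM in Fra-2-labelled libraries 2 and 3.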

How the data were processed

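Poly(A) RNA was isolated from 50 ng of total RNA per sample, amplified as cDNA and made into tagmented libraries, per the labels' protocols. The deposited table holds whole-number counts per mouse Ensembl gene. The aligner, the counter and any filter the authors used remain unstated in the sources read, and the submitters' processing notes name GRCh38, a human build, although the identifiers are those of mouse. Of 43432 identifiers, 42548 received a symbol, position and length from GENCODE M21 (GRCm38).

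The counts were fitted with edgeR 4.0.16 in R 4.3.3 (limma 3.58.1), with filterByExpr (minimum count 10, minimum total 15), TMM scaling and the robust quasi-likelihood F-test over all 8 libraries, two-sided, with Benjamini-Hochberg adjustment over 15422 genes. Of these, 157 passed an adjusted p of 0.05 (111 higher and 46 lower in Fra-2-labelled libraries), with a common biological coefficient of variation of 0.257. The fit was tested on simulated counts. CPM per kilobase uses the union of a gene's exons. Intervals are at 95%. Alternatives were DESeq2 1.42.0, other scalings and filters, a replicate block, a sex term, each sex alone, each library left out and other gene lengths. The longest-transcript and unshared-base lengths and the fits of each sex alone were chosen after seeing the data.

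The members and gene lists were chosen with earlier results of these data known. Named by rule were the 5 members, Fosl2, and the called and the 3 most abundant genes of each list. So were the nearest protein-coding neighbours, the 5 genes most like Lrrc8e, and the most abundant gene of each marker list. Sgk1 and the other marker genes named were added after their values were seen. Within groups, no libraries were duplicates of each other: counts differed by a chi-square of 40.6 to 179 per gene. Pairs of libraries from different groups were not checked for duplication.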

Additional observations from a re-analysis of the deposited data

Results flagged for a closer look

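Among 82 groups of 4 values examined for a library far from the others, 1 stood out, and chance flags about 1 in 20 such groups. Lrrc8c had 36.8 CPM in Fra-2-labelled library 2, against 55.2 to 56.4 CPM in the other Fra-2-labelled libraries. The gap to the nearest of these was 0.937 of the group's range, above Dixon's critical value at 95% for 4 samples. Without this library the log2 fold change of Lrrc8c was 0.18.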

How the results depend on the processing

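Over the alternatives run, the log2 fold change of Lrrc8e kept its direction at 1.82 to 2.39. The number of genes past the threshold was 157, became 369 in DESeq2 (272 higher and 97 lower) and ranged between 76 and 205 with 1 library left out, with 76 without control library 2 or without Fra-2-labelled library 1, 81 without Fra-2-labelled library 3 and 90 without control library 3. Of the volume and osmolyte genes, 2 passed with no low-count filter, with the replicate block and in DESeq2, and 1 to 2 with 1 library left out (2 without control library 4). The check used did not pair same-numbered libraries. Their deviations correlated at 0.00177, 0.219, 0.0797 and 0.31, and not every library correlated best with its own number. The numbers did carry a coarser pattern across the groups. Correlations were positive (0.00177 to 0.31) within libraries 1 and 2 and within libraries 3 and 4. Between libraries 1 or 2 and libraries 3 or 4 they were negative (-0.298 to -0.00874). The source of that pattern was not tested. With the replicate block, 190 genes passed, and the log2 fold changes of Lrrc8a to Lrrc8e were 0.13, 0.41, 0.04, -0.02 and 2.12.

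The subunit shares moved with the length used, by construction of those lengths. With coding length, Fra-2-labelled libraries had 17.6% Lrrc8a, 30.0% Lrrc8d and 5.55% Lrrc8e, and controls had 18.0% Lrrc8a, 32.0% Lrrc8c, 33.9% Lrrc8d and 1.45% Lrrc8e. With no length, Fra-2-labelled libraries had 17.4% Lrrc8a, 31.4% Lrrc8d and 5.38% Lrrc8e, and controls had 17.7% Lrrc8a, 31.2% Lrrc8c, 35.4% Lrrc8d and 1.40% Lrrc8e. With the longest coding transcript, Fra-2-labelled libraries had 20.1% Lrrc8a, 12.5% Lrrc8b, 20.8% Lrrc8c, 39.7% Lrrc8d and 6.91% Lrrc8e, and controls had 20.5% Lrrc8a, 10.5% Lrrc8b, 22.3% Lrrc8c and 44.9% Lrrc8d. With exon bases not shared with other genes, Fra-2-labelled libraries had 55.6% Lrrc8a, 11.0% Lrrc8b, 16.7% Lrrc8c, 11.1% Lrrc8d and 5.70% Lrrc8e, and controls had 57.9% Lrrc8a, 9.49% Lrrc8b, 18.3% Lrrc8c, 12.8% Lrrc8d and 1.53% Lrrc8e. With 1 library left out, the log2 fold changes of Clic4 (-0.0708 to 0.127), Ano6 (-0.0295 to 0.0693), Prr36 (-0.413 to 0.154) and Map2k7 (-0.0144 to 0.114) changed sign, and the cause was not tested. Those of Lrrc8c and Lrrc8d, near 0, ran between 0.00 and 0.18 and between -0.08 and 0.06. Lrrc8e had 58 to 119 counts in control libraries.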
